A study of Mus musculus with 11 samples.

Results

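The calponin and transgelin genes encode small actin-binding proteins built around a calponin homology domain. The rows with the symbols Cnn1, Cnn2, Cnn3, Tagln and Tagln2 were taken from each gene table, which gave 5 genes out of 46469 symbols (48892 loci). Each symbol had 1 locus, and all 5 genes passed the filter on low values. Tagln3, the remaining member of the family, was read beside them.

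Gene expression was measured by sequencing of poly(A)-selected RNA in 11 libraries of mouse embryonic fibroblasts of the BALB/c strain, derived per the labels from embryos 10.5 days old and harvested at 70% confluence in medium with high glucose and fetal serum. The groups were Actb +/+ (WT, 4 libraries), Actb +/- (Het, 4 libraries) and Actb -/- (KO, 3 libraries), so that 2, 1 or 0 copies of the β-actin gene were intact. The study asked how gene programmes and cell identity depend on β-actin. The submitters call the libraries of a group biological replicates. How the allele was made, and whether each library came from its own embryo or culture, is not given in the sources used here. The p-values measure the spread between these libraries, which may be technical.

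Calponins bind the side of actin filaments and, in smooth muscle, restrain the actin-activated ATPase of myosin. Cnn1 encodes basic calponin, a marker of differentiated smooth muscle, while Cnn2 (neutral calponin) and Cnn3 (acidic calponin) are also found in non-muscle cells such as fibroblasts, where they associate with stress fibres. Tagln encodes transgelin (SM22α), an early and abundant smooth muscle protein that is also found in myofibroblasts. Tagln2 encodes a widely expressed relative, and Tagln3 one found mainly in neurons. Transcription of Cnn1 and Tagln is driven in smooth muscle by serum response factor (SRF), which binds an A/T-rich element named the CArG box. Its coactivators of the myocardin family (MRTFs) are held inactive by binding monomeric actin.

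The genes lie apart in the genome (GRCm38, positions counted from 1). Cnn1 is on chromosome 9 (22099221 to 22109221) and Tagln is on the same chromosome (45929628 to 45936058). Cnn2 is on chromosome 10 (79988600 to 79995400), Cnn3 on chromosome 3 (121426541 to 121458205) and Tagln2 on chromosome 1 (172500246 to 172507375). In GENCODE M21 a coding transcript has 7 exons in each calponin gene and 5 in Tagln and Tagln2. The 250 bases before the RefSeq transcription start (which for Cnn1 lies inside the locus of the files) are printed for the 4 members that the RefSeq promoter table holds (build GRCm38.p6, all on the plus strand), because they allow the gene that was switched on in KO to be set beside the genes that were expressed throughout. Capitals mark a GC box (GGGCGG, or CCGCCC on the other strand) or, between the GC boxes of Cnn2, a CArG box. The table has no entry for Tagln.
Cnn1 (chr9:22099003-22099252): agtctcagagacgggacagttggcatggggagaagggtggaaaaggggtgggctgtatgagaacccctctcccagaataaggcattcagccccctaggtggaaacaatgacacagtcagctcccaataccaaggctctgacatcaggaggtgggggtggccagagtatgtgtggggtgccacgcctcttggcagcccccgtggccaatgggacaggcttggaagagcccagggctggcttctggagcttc
Cnn2 (chr10:79988350-79988599): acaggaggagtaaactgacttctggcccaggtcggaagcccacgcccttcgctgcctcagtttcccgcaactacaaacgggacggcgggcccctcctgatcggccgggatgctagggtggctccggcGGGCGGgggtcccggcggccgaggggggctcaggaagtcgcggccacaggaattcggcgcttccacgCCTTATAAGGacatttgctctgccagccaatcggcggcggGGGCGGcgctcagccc
Cnn3 (chr3:121426291-121426540): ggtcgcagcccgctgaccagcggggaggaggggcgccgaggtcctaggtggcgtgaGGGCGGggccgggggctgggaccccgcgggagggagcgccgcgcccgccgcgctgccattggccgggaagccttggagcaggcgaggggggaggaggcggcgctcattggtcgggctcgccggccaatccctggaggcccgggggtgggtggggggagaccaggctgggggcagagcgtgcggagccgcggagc
Tagln2 (chr1:172499996-172500245): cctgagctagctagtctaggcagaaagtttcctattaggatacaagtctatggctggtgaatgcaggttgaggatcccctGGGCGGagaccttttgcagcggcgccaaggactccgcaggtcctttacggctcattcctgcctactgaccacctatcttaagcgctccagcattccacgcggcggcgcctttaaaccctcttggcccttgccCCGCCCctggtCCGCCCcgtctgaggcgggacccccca

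The window before Cnn2 held a CArG box, CCTTATAAGG, whose first base lay 56 bases before the start, and it did not overlap a GC box. The exact CArG pattern occurred in 482 of 32851 promoter windows of this length (1.47%), and it is its own reverse complement, so both strands were covered. No exact match was found in the windows of Cnn1, Cnn3 or Tagln2. GC boxes numbered 2 before Cnn2, 1 before Cnn3 and 3 before Tagln2, and none was found before Cnn1; 32.7% of all windows held at least 1. The G and C content was 59.2% for Cnn1, 68.4% for Cnn2, 78.8% for Cnn3 and 60% for Tagln2, against a median of 52.4% over all windows. These are matches of letters only, and no binding was measured.

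To check the genotypes, Actb mRNA was examined before any member. Its level in FPKM, which counts fragments per length of transcript and per size of library, averaged 1319 ± 202.9 over the WT libraries (SD, n = 4) and 831 ± 21.3 over the Het libraries (SD, n = 4). The KO libraries averaged 45.1 ± 1.36 (SD, n = 3), so the levels fell in the order of the labels. FPKM tables carry no read depth. Relative depth, estimated from loci with about 1 fragment, lay between 60.7% and 125% of that of WT 1. Among markers of the labelled cell type, the mesenchymal genes Vim (879.5 FPKM in WT on average), Fn1 (189) and Col1a1 (170) were high, whereas Thy1 (0.0247), Lum (0 in every WT library), Pdgfra (0.211) and Dcn (0.799) were near or at 0 in WT. Of 10 such markers 9 were tested, and 8 rose in KO and 8 in Het against WT. By the same test 22.4% and 21.5% of all genes tested were higher. A fall from WT could hardly be seen for the markers near or at 0 in WT. A rise of these adds no support to either count. In KO against Het 3 of the 9 were higher and 4 lower, where 21.4% of all genes tested were higher and 44.5% differed in either direction. Col3a1, a fibrillar collagen gene, changed most in KO against WT (1.37 FPKM in WT, 71.2 in Het and 38.2 in KO; 4.04, adjusted p = 7.00e-10) and was lower in KO than in Het. Fn1 (1.85), Col1a1 (2.03) and Thy1 (1.63) rose in KO against WT. Thy1 measured at most 0.0989 FPKM in WT and 0.839 in Het, so it passed the filter through KO alone. The summed level of the 10 markers lay at 1435 to 1901 FPKM in WT, 2360 to 2706 in Het and 3481 to 4135 in KO, and the part of this shift in the results below was not tested. In these bulk libraries a change in the number of cells of a type and a change in RNA per cell cannot be told apart.

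In KO cells, mRNA of all 5 genes was higher than in WT, and the increase was very unequal. Cnn1 and Tagln, the smooth muscle members, rose 193.7-fold and 18.8-fold (ratio of group means). The widely expressed members Cnn2, Tagln2 and Cnn3 rose 2.14-fold, 1.75-fold and 1.42-fold. All 5 passed the test, where 22.4% of 14930 genes tested were called higher in KO and 47.5% were called in either direction. The call was an adjusted p under 0.05 from limma, a linear model fitted to log2(FPKM + 1) over all genes, with the p-values adjusted by Benjamini and Hochberg. In that comparison 47.1% of the 7091 called genes were higher, and 37.1% of called genes when the libraries were not scaled to each other. All 5 members were still higher and called without scaling.

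Cnn1 was barely present in cells with at least 1 intact Actb copy. The WT libraries 1 to 4 measured 1.43, 1.22, 1.52 and 1.24 FPKM. The Het libraries 1 to 4 measured 1.86, 3.15, 2.08 and 2.89 FPKM, and the KO libraries 1, 3 and 4 measured 244, 267 and 275 FPKM. Each Het library thus lay above each WT library, and the KO libraries lay far above both. The log2 difference of KO from WT was 6.81 (SE 0.13, adjusted p = 3.58e-11), the fourth largest increase of the genes tested, and that of KO from Het was 6.25 (SE 0.13, adjusted p = 6.77e-11). The difference of Het from WT was 0.55 (SE 0.12, adjusted p = 0.00285). At this level the estimate within a library was coarse, since the authors' interval had a half-width of 49.3% to 68.6% of the value in WT and 32.2% to 52.3% in Het, against 4.89% to 5.88% in KO.

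Tagln was already expressed in WT and did not follow Cnn1 in Het. It measured 40.2, 45.4, 44.3 and 44.9 FPKM in WT 1 to 4. In Het 1 to 4 it measured 41.3, 39.4, 36.8 and 39.6 FPKM, and in KO 1, 3 and 4 it measured 799, 852 and 814 FPKM. KO libraries stood far above the rest, while WT and Het overlapped through WT 1 and Het 1. The log2 difference was 4.20 for KO from WT (SE 0.06, adjusted p = 1.06e-11) and 4.35 for KO from Het (SE 0.06, adjusted p = 3.66e-12). For Het from WT it was -0.15 (SE 0.06, adjusted p = 0.0468), a call at the edge of the threshold that was lost without any 1 of 9 libraries (all but WT 1 and Het 1), with adjusted p up to 0.136, and without scaling (adjusted p = 0.0765). The end of the locus of Pcsk7, a proprotein convertase gene on the opposite strand, overlaps the Tagln locus, and GENCODE annotates a further antisense transcript there (Gm48529). Of the 50-base stretches in Tagln transcripts, 58.3% lie in one of these on the opposite strand. The library kit marks strand, but the strand setting of the counting is not given in the sources used here, so antisense reads cannot be told apart. Pcsk7 itself measured 23.8 ± 3.27 FPKM in WT and 20.7 ± 0.368 in KO (SD, n = 4 and 3) and was not called (adjusted p = 0.203).

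**Figure D1:**
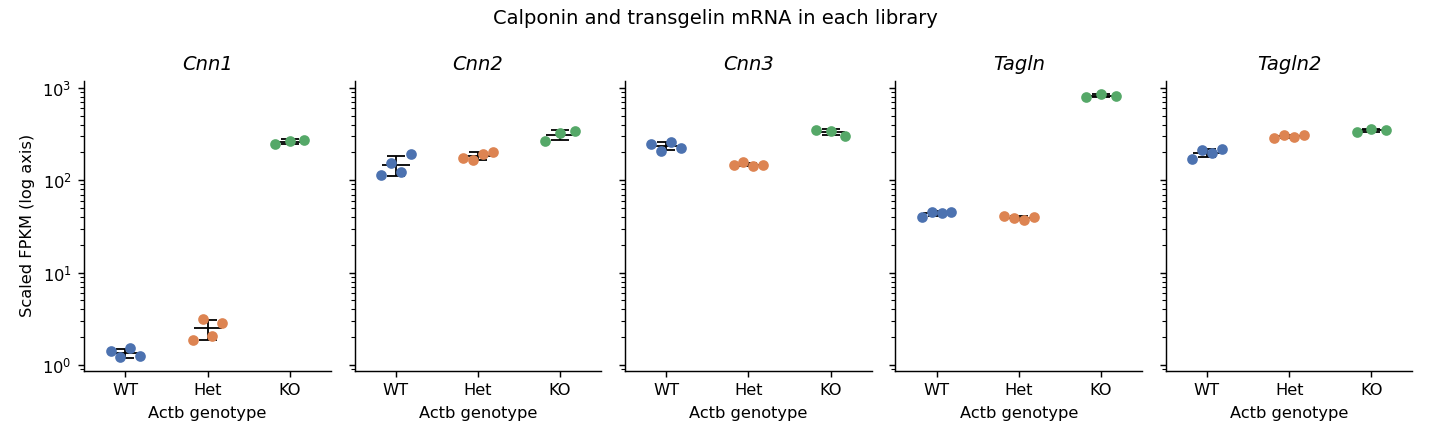
Scaled FPKM (log axis) of the 5 genes in each library, by Actb genotype; points are libraries, the horizontal mark is the group mean and the bar its SD (4 WT, 4 Het and 3 KO libraries). Cnn1 and Tagln stand far higher in KO than in either other group, Cnn3 dips in Het, and Tagln2 is higher in both Het and KO.

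Cnn2 and Tagln2, the widely expressed members, differed from WT by far less. Tagln2 measured 170, 211, 199 and 216 FPKM in WT 1 to 4, 285, 307, 295 and 310 in Het 1 to 4, and 331, 360 and 350 in KO 1, 3 and 4. Every Het library was above every WT library and every KO library above every Het library. Tagln2 rose in Het (log2 difference 0.59, SE 0.08, adjusted p = 0.000102) and in KO (0.81, SE 0.08, adjusted p = 1.5e-05). KO against Het was not called (0.21, SE 0.08, adjusted p = 0.0551), although it passed without WT 1 (adjusted p = 0.00842), without WT 4 (adjusted p = 0.0369) or with only the KO and Het libraries in the fit (adjusted p = 0.00958).

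Cnn2 measured 114, 152, 124 and 193 FPKM in WT 1 to 4, 175, 165, 190 and 203 in Het 1 to 4, and 267, 321 and 345 in KO 1, 3 and 4. The KO libraries lay above all others, while WT 4 lay within the range of Het. Cnn2 rose in KO against WT (1.11, SE 0.16, adjusted p = 0.000226) and against Het (0.76, SE 0.16, adjusted p = 0.00309). Het against WT was not called (0.36, SE 0.15, adjusted p = 0.0809), and it was called without WT 4 (0.49, adjusted p = 0.00618). The libraries differed in how level varied with GC content. Per 10 percentage points of GC content, genes deviated from their WT mean by -0.29 in WT 1, 0.09 in WT 2, -0.15 in WT 3 and 0.35 in WT 4 on the log2(FPKM + 1) scale. Cnn2 transcripts have a GC content of 55.1%, against a median of 50.1% over tested genes. With each library's GC trend removed, the difference of Het from WT was 0.33 (adjusted p = 0.0109) and that of KO from WT 1.04 (adjusted p = 5.78e-06). For this correction the trend was taken against the mean of all 11 libraries, so a trend between genotypes was removed too.

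Cnn3 fell in Het and rose in KO, with no overlap between the groups. It measured 248.7, 206, 256 and 222 FPKM in WT 1 to 4. The Het libraries 1 to 4 measured 145, 156, 143 and 145 FPKM, and the KO libraries 1, 3 and 4 measured 353, 342 and 302 FPKM. Het was lowest and KO highest. The log2 difference was -0.65 in Het against WT (SE 0.08, adjusted p = 6.53e-05), and Cnn3 rose in KO against WT (0.51, SE 0.08, adjusted p = 0.000526) and against Het (1.16, SE 0.08, adjusted p = 1.36e-06). Part of its annotated transcript sequence is not unique, as 24.02% of its 50-base stretches also occur in transcripts of other annotated genes. These are the antisense transcript Gm42928 and, on the same strand, Gm4815 and Gm17936. The latter pair measured at most 0.152 and 0.171 FPKM in any library. No 50-base stretch was shared between members of the family, so a stretch of that length tells the members apart.

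In Het against WT, therefore, 4 of the 5 genes were called, Cnn1 and Tagln2 higher and Cnn3 and Tagln lower, where 43.9% of genes tested were called, 21.5% higher and 22.4% lower. In KO against Het 4 of 5 were called, all higher, where 21.4% of genes tested were called higher and 44.5% in either direction. The 3 comparisons share libraries, so their counts are not independent.

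**Figure D2:**
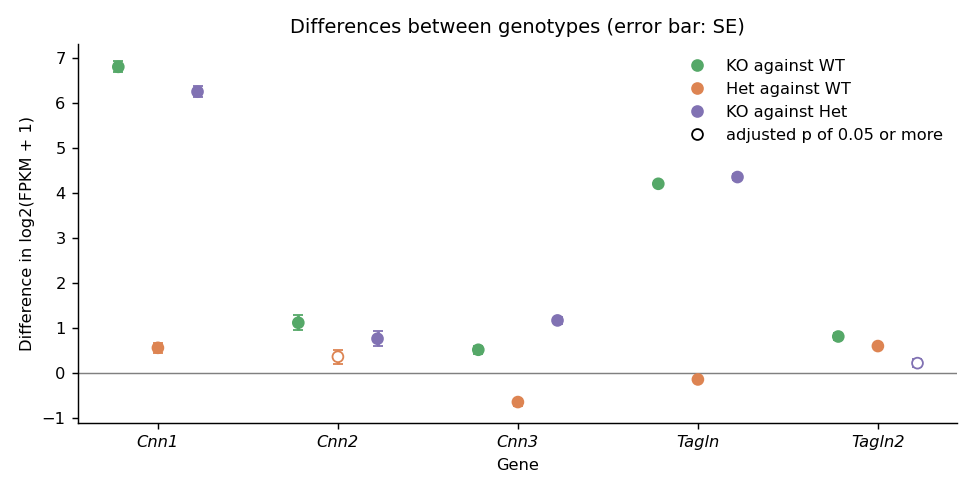
Difference in log2(FPKM + 1) between genotypes for each gene, with the limma standard error as a bar; filled points have an adjusted p under 0.05. Cnn1 reaches 6.81 in KO against WT, and Cnn3 is lower in Het (-0.65) and higher in KO (0.51).

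Tagln3, the neuronal relative, stayed under 1 FPKM in every library and was not tested. It was listed at 0 in 3 of 4 WT libraries and at 0.191 in WT 2. It measured 0.874, 0.832, 0.653 and 0.585 in Het 1 to 4, and 0.817, 0.211 and 0.521 in KO 1, 3 and 4. At this level the interval in Het already spans 66.7% to 75.6% of the value on either side.

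The order of the genes by level changed with genotype, and FPKM allows it to be read because it is per length. In WT the order was Cnn3 (233 ± 23.4 FPKM), Tagln2 (199 ± 20.8), Cnn2 (146 ± 35.2), Tagln (43.7 ± 2.39) and Cnn1 (1.35 ± 0.148; SD, n = 4 for each). The ranges of Cnn3 and Tagln2 overlapped, as did those of Tagln2 and Cnn2. In Het the order was Tagln2 (299 ± 11.4), Cnn2 (183 ± 16.6), Cnn3 (148 ± 5.80), Tagln (39.3 ± 1.85) and Cnn1 (2.49 ± 0.622; SD, n = 4 for each), with no overlap between neighbours. In KO Tagln came first (822 ± 27.3; SD, n = 3), above every other member in each library. Tagln2 (347 ± 14.9), Cnn3 (332 ± 26.6), Cnn2 (311 ± 39.7) and Cnn1 (262 ± 16.3; SD, n = 3 for each) followed, and each of these overlapped its neighbour. Among all 14930 genes tested, Tagln stood at rank 2456 by level in WT and rank 76 in KO, and Cnn1 at ranks 13378 and 323.

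The make-up of each family shifted with these changes. The summed calponin level was 364, 359, 382 and 416 FPKM in WT 1 to 4, 323, 324, 335 and 352 in Het 1 to 4, and 864, 930 and 922 in KO 1, 3 and 4. It was lowest in Het and highest in KO, and the groups did not overlap. Of calponin FPKM, Cnn1 supplied 0.357% ± 0.0477 in WT and 0.746% ± 0.183 in Het (SD, n = 4 each), against 28.9% ± 0.833 in KO (SD, n = 3). The share of Cnn3 went from 61.5% ± 7.31 in WT to 44.3% ± 2.95 in Het (SD, n = 4 each) and 36.8% ± 4.02 in KO (SD, n = 3). The ratio of Cnn2 to Cnn3 was 0.637 ± 0.199 in WT, 1.25 ± 0.148 in Het and 0.947 ± 0.191 in KO (SD, n = 4, 4 and 3).

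The transgelin sum (Tagln, Tagln2 and Tagln3) was 210, 256, 243 and 261 FPKM in WT 1 to 4, 327, 347, 333 and 350 in Het 1 to 4, and 1130, 1212 and 1165 in KO 1, 3 and 4. Unlike the calponin sum, it was higher in Het than in WT. Tagln made up 18.1% ± 0.833 of it in WT and 11.6% ± 0.698 in Het (SD, n = 4 each), and 70.3% ± 0.380 in KO (SD, n = 3). Cnn1 and Tagln together supplied 7.24% ± 0.316 of the level of all 6 genes in WT, 6.21% ± 0.353 in Het and 52.2% ± 0.0381 in KO (SD, n = 4, 4 and 3). For both sums, the Cnn1 share and the Tagln share, the groups did not overlap in any of the 12 comparisons. Each reached the smallest two-sided p that an exact permutation test allows, 0.0286 for 4 against 4 libraries and 0.0571 for 4 against 3. Adjusted over the 12 tests every p was 0.0571, so this design cannot pass the 0.05 threshold here.

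**Figure D3:**
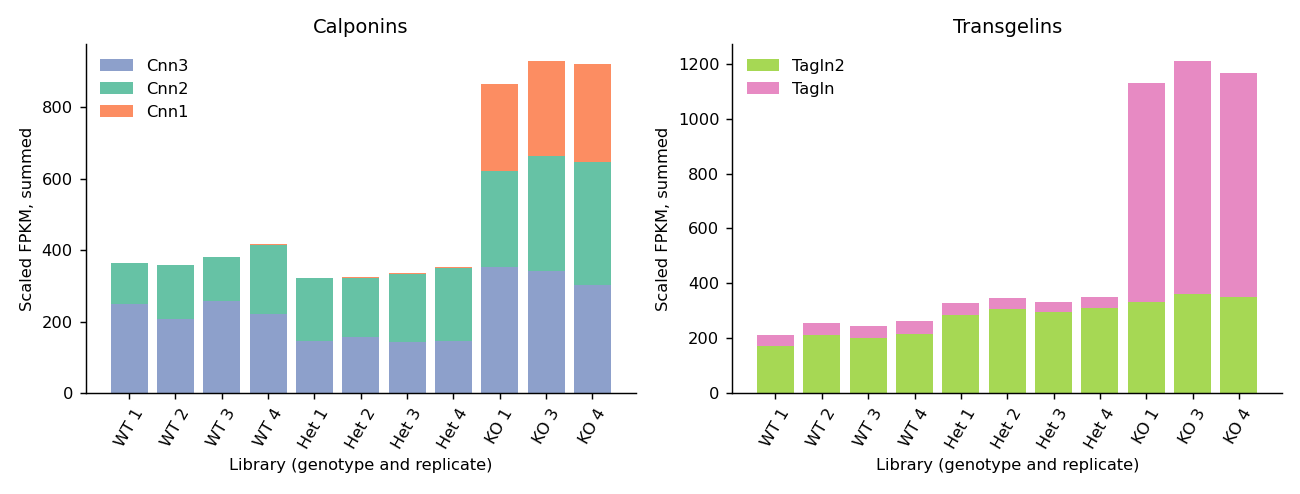
Summed scaled FPKM of the calponins (left; Cnn3, Cnn2 and Cnn1 stacked) and of Tagln2 and Tagln (right) in each of the 11 libraries. Cnn1 and Tagln form a visible part of the KO bars, while the calponin bars are lower in Het than in WT and the transgelin bars higher.

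Genes whose pattern was most like that of each member were found among 9020 named genes by the smallest root mean square difference over the 11 libraries, after subtracting each gene's WT mean on the log2(FPKM + 1) scale. This is a description, since all genes were read in the same 11 libraries with the same genotypes and depths. For Cnn1 they were Actg2 (0.50), the enteric smooth muscle actin, Myl9 (0.60), the regulatory light chain of smooth muscle myosin, and Acta2 (0.78), the vascular smooth muscle actin. For Tagln they were Lmod1 (0.29), a smooth muscle actin nucleator, Fam150a (0.32), a ligand of the receptor kinase ALK, and Plin4 (0.40), a lipid droplet coat gene. Lmod1 rose from 0.0854 FPKM in WT to 17.5 in KO, so the likeness is one of pattern at very different levels. Cnn2 was most like Fam129b (0.09), Serf2 (0.11) and Gsn (0.11), the last encoding the filament-severing protein gelsolin, at 114 FPKM in WT, 159 in Het and 247 in KO. Cnn3 was most like Antxr2 (0.07), a receptor for matrix proteins, Sdc2 (0.07), the heparan sulfate proteoglycan syndecan 2, and Egln3 (0.09), a prolyl hydroxylase. Sdc2 measured 64.4 FPKM in WT, 41.3 in Het and 88.2 in KO. Tagln2 spanned less than 1 on the log2 scale between groups (0.81) and was left out.

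**Figure D4:**
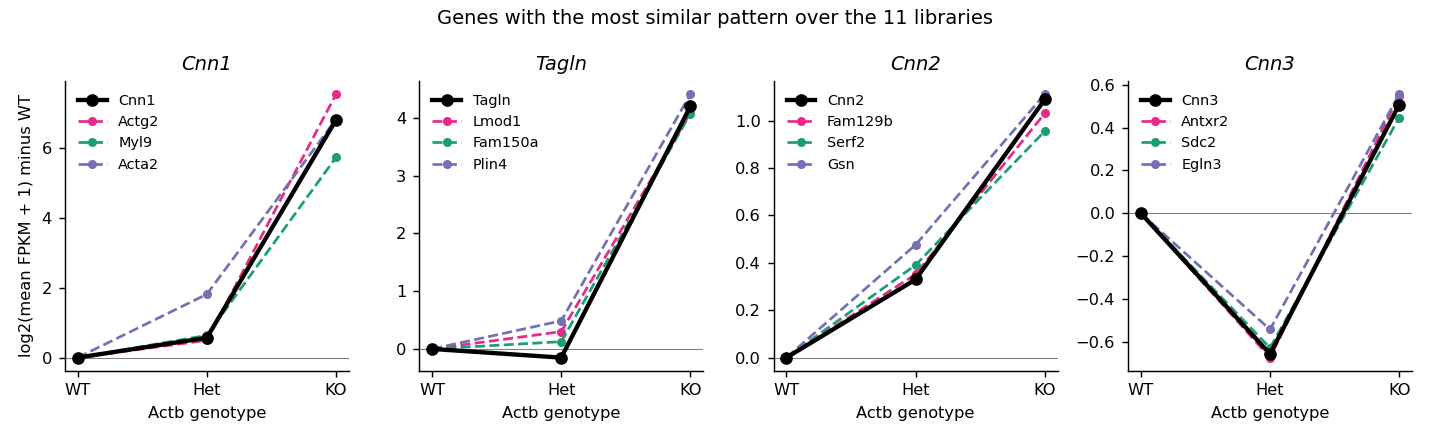
log2(mean FPKM + 1) in each group minus the WT value, for 4 members (black) and the 3 genes most like each (dashed). Cnn1 and Tagln differ far more between WT and KO than between WT and Het, Cnn2 is highest in KO, and Cnn3 dips in Het.

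Cnn1 and Tagln stood within a broad rise of smooth muscle contractile genes in KO. Of 27 such genes other than the members, 22 were tested, and 20 rose and none fell in KO against WT. Over all genes tested, 22.4% were called higher and 47.5% in either direction. The median log2 difference of the list was 1.38, against -0.01 over all genes tested. Actg2, Lmod1, Synpo2 and Ldb3 stayed under 1 FPKM in every WT and Het library and passed the filter through KO alone. Synm and Des were under 1 FPKM in every WT library (at most 0.754 and 0.479) and passed through Het and KO. A fall in KO could not be seen for such genes, so their rise adds no support to the count. Actg2 (7.55, adjusted p = 5.26e-11), Acta2 (6.82, adjusted p = 3.47e-13), Myl9 (5.74, adjusted p = 3.58e-11) and Lmod1 (4.09, adjusted p = 4.73e-11) changed most. Smtn (smoothelin, 0.71) and Csrp2 (a LIM domain protein, -0.07) were not called. Other markers of mature smooth muscle were low in every group. Myh11, the smooth muscle myosin heavy chain, averaged 0.463 FPKM in WT and 0.904 in KO and was not tested, and the coactivator gene Myocd averaged 0.257 and 0.253. Des, which encodes the filament protein desmin, rose from 0.440 to 1.20 FPKM (0.60, adjusted p = 0.00135). In Het against WT the list was split, as 13 rose and 4 fell, where 21.5% of genes tested were called higher and 22.4% lower. The 4 of 22 that fell thus lay near the background. Actg2, Lmod1, Synm and Des were among the 13 that rose. As they were under 1 FPKM in every WT library, a fall in Het could not be seen. Their rise adds no support to the Het count either. The median was 0.24, against 0.00 over all genes tested. The 4 that fell were Nexn (-0.80), Pdlim7 (-0.70), Tpm1 (-0.42) and Fhl1 (-0.16), which like Tagln and Cnn3 were higher in KO than in WT. These 4 were named after their values were seen.

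Tagln and Cnn1 did not keep a fixed ratio to the actin that rose beside them. Acta2 averaged 55.9 FPKM in WT, 199 in Het and 6434 in KO. Per 100 FPKM of Acta2, Tagln measured 78.2 ± 1.33 FPKM in WT, 19.8 ± 1.27 in Het and 12.8 ± 0.881 in KO (SD, n = 4, 4 and 3), and the groups did not overlap. Cnn1 measured 2.43 ± 0.349 in WT, 1.26 ± 0.351 in Het and 4.09 ± 0.499 in KO on the same footing.

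**Figure D5:**
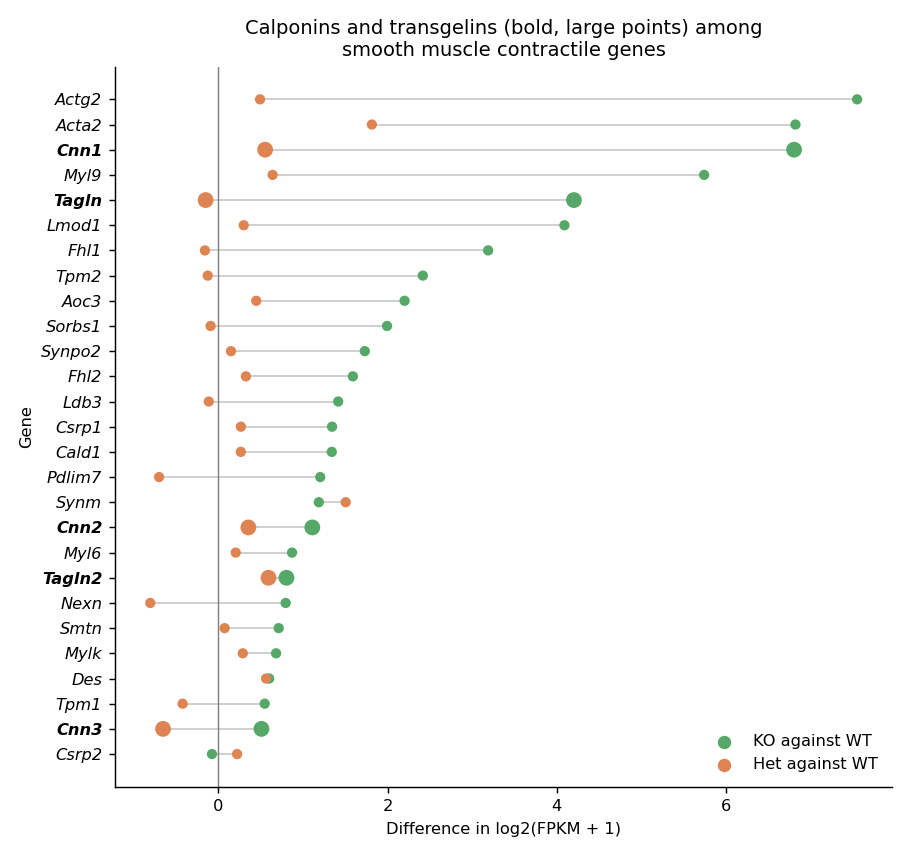
Difference in log2(FPKM + 1) from WT in KO (green) and Het (orange) for the 5 members (bold, large points) and the 22 tested smooth muscle contractile genes, ordered by KO. Cnn1 and Tagln are among the 5 largest KO differences, and Cnn3 and Tagln lie left of 0 in Het.

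The genes of SRF and its coactivators changed less than Cnn1 and Tagln, and the activity of their proteins was not measured. Srf rose from 13.2 to 28.2 FPKM in KO (1.06, adjusted p = 0.000635), Mkl1, which encodes MRTF-A, from 13.8 to 22.3 (0.70, adjusted p = 0.0289) and Mkl2, which encodes MRTF-B, from 5.27 to 7.46 (0.43, adjusted p = 0.00134). For Mkl1 the groups overlapped, with 8.59 to 19.3 FPKM in WT and 17.9 to 26.6 in KO, while for Srf and Mkl2 they did not. None of the 3 was called in Het against WT, with log2 differences of -0.13, -0.03 and 0.10, and Myocd was too low to test.

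Other genes with calponin homology domains were counted in the same way. Of 30 genes with a single such domain outside the members, 26 were tested, of which 8 rose and 4 fell in KO against WT, with a median of 0.16, where 22.4% of all genes tested were called higher and 47.5% in either direction. The 12 called of 26 thus lay near the background. The monooxygenase gene Mical2, which oxidises actin, changed most (6.85 to 32.6 FPKM, 2.1, adjusted p = 4.87e-10), followed by Gas2 (1.20), Limch1 (1.10) and Ehbp1l1 (1.08), while Iqgap2 (-0.99), Lmo7 (-0.38), Iqgap3 (-0.36) and Ehbp1 (-0.24) fell. Of 25 genes with paired domains, which form the actin-binding site of crosslinkers and linkers, 17 were tested, and 10 rose and 1 fell (median 0.45), beside the same background. Actn1 (α-actinin, 1.92), Flna (filamin A, 1.58), Pls3 (plastin, 1.5) and Actn3 (1.35) led, and Dst (-0.26) fell. Limch1 and Actn3 stayed under 1 FPKM in every WT and Het library, and they passed the filter through KO alone. Flna, like Cnn3, fell in Het (189 FPKM in WT, 148 in Het and 567 in KO).

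Genes lying next to the members mostly did not share their rise in KO. In Het, Alg14 fell as did Cnn3 beside it, and Igsf9 rose as did Tagln2. Beside Cnn1, Ecsit was not called (0.04, adjusted p = 0.875) and Elof1 fell in KO (-0.33, adjusted p = 0.00492). Beside Tagln, Rnf214 was not called (-0.12) and Sidt2 fell slightly (-0.18, adjusted p = 0.0422). Beside Cnn3, Alg14 fell in both KO (-0.50) and Het (-0.70), and Slc44a3 measured at most 0.0861 FPKM. Beside Cnn2, neither Tmem259 (0.24) nor Abca7 (0.58, adjusted p = 0.0515) was called in KO, while Abca7 rose in Het (4.99 FPKM in WT and 10.6 in Het, adjusted p = 0.0025). Igsf9, which ends 1368 bp before Tagln2, rose from 0.532 to 3.53 FPKM in KO (1.58, adjusted p = 9.26e-06) and in Het (0.66, adjusted p = 0.00288), and Cfap45 on the other side was nearly absent.

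Markers of other cell types were read for the same libraries. Of 10 skeletal muscle markers Myod1, Myog and Myh8 were at 0 in every library, and the summed level lay at 4.47 to 8.79 FPKM in WT, 3.16 to 4.69 in Het and 3.397 to 5.64 in KO. Acta1 was the single one tested, and it was not called in KO (-0.41) and fell in Het (-0.57, adjusted p = 0.0357). The 8 cardiac markers summed to 3.05 to 9.34 FPKM in WT, 4.36 to 6.75 in Het and 25.1 to 27.2 in KO. Of these 8 only 2 were tested. Tnnt2 rose in KO, from 1.29 to 21.8 FPKM (3.33, adjusted p = 1.04e-07), and the other was not called. The 7 pericyte markers summed to 22.1 to 31.7 FPKM in WT, 40.4 to 48.3 in Het and 75.2 to 78.8 in KO, where Pdgfrb and Notch3 rose (1.83 and 2.24) and Cspg4 fell (-2.19). The 8 endothelial markers summed to 4.81 to 10.8, 4.97 to 6.05 and 4.79 to 6.81 FPKM in WT, Het and KO, and Flt1 fell in KO (-0.68, adjusted p = 0.00197). The 8 epithelial markers summed to 3.02 to 7.62, 5.44 to 9.73 and 0.839 to 1.04 FPKM, and the 8 macrophage and blood cell markers to 4.51 to 6.46, 7.20 to 8.997 and 4.36 to 8.56. Among epithelial markers Krt14 fell in KO (-1.66) and in Het (-1.32), and Krt18 fell in KO (-1.15) and rose in Het (1.45). Among those of macrophages and blood, Cd68 (0.39) and Cd14 (-0.03) were not called in KO, and Cd14 rose in Het (0.79, adjusted p = 0.000828). Only 4 pericyte, 2 endothelial, 2 epithelial and 2 macrophage or blood cell markers were tested, and the rest were below the filter. Tie1 and Emcn, and Ptprc, Tyrobp, Hbb-bs and Emr1, were at 0 in all 11 libraries. The part of these differences in other cell type markers in the results on calponins and transgelins was not tested.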

How the data were processed

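The authors deposited, for each library, a table of FPKM per gene locus with the lower and upper end of an interval. Per the submitters' processing notes, TopHat2 2.1.0 and Cufflinks 2.2.1 were used with genome GRCm38.p4; the notes also name Cuffdiff. Annotation and strand settings are not given in the sources used here. The study's design text states that 1 further KO sample failed quality control; it is not analysed here.

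The 11 tables were joined by locus ID and position. FPKM of loci sharing a symbol were summed, 31 symbols turned into dates in WT 1 were restored from the other tables, and at most 7 estimates per library had failed, none of a member. Libraries were scaled by the median of ratios over 19186 genes above 0 throughout (factors 0.956 to 1.04). A gene was tested where 3 or more libraries reached 1 scaled FPKM, which 14930 genes did. The 3 KO libraries could meet this alone, and a gene under 1 elsewhere could then not be called lower in KO. The values log2(FPKM + 1) were fitted with limma 3.58.1 (R 4.3.3), with a mean for each group. Variances were moderated by empirical Bayes with a trend on mean level, from all 11 libraries together. Fold changes on this scale understate the change of low genes. The threshold was an adjusted p of 0.05, and "rose" or "fell" is used past it. The fit was tested on simulated data. Sums and shares were compared by exact permutation tests (scipy 1.17.1).

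Members, lists and tests were chosen with earlier results of these data known. Named from each list were up to 4 called genes with the largest change in KO against WT, or up to 2 of the highest level where none was called; other genes were named after their values were seen. Neighbours were the nearest listed locus on each side, and like genes the 3 closest with a group mean of at least 5 FPKM; predicted and clone names were left out of both. No 2 tables were identical. Relative depth came from loci whose upper interval end was about 3 times the FPKM. GC content came from GENCODE M21 transcripts and covered 89.1% of genes tested. Alternatives were the pseudocount, scaling, filter, trend, libraries in the fit, locus choice, a replicate block, each library left out and, added after seeing the data, a GC correction and a different gene set for scaling.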

Additional observations from a re-analysis of the deposited data

Results flagged for a closer look

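Among 20 groups of 4 libraries examined, for the 6 genes and the sums and shares of both families, 1 held a library far from the others. Tagln3 in WT 2 was at 0.191 FPKM, while the other WT libraries were listed at 0, so any value above 0 would have stood apart. Chance flags about 1 in 20 such groups.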

How the results depend on the processing

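Replicate numbers matched the libraries only in part. Of 10 same-numbered pairs, deviations from the group means correlated at over 0.1 in 5 (range -0.10 to 0.35). Pairs numbered 4 lay at 0.254 to 0.353 and pairs numbered 1 at 0.0446 to 0.333, while pairs numbered 2 and 3 lay under 0. A library correlated best with its own number in 9 of 20 checks. The GC trend relative to the group mean was negative in each library numbered 1 (-0.287 in WT, -0.0308 in Het and -0.118 in KO). It was positive in each numbered 4 (0.347, 0.102 and 0.134) and of mixed sign in those numbered 2 and 3. The main fit did not use replicate numbers. The part of the GC trend, or of anything else that same-numbered libraries shared, was not tested. With a replicate block 7284 genes were called in KO against WT, 6975 in Het against WT and 6867 in KO against Het (main 7091, 6557 and 6650). No direction of a member reversed under any alternative, and the counts of called genes stayed within 1.5 times. Differences between Het and WT or Het and KO near the threshold depended on the setting, and the cause was not tested. Cnn2 in Het against WT became called with a replicate block (0.36, adjusted p = 0.0278) and after GC correction (0.33, adjusted p = 0.0109), and lay between 0.25 and 0.49 with a library left out. Tagln in Het against WT was no longer called without scaling (-0.14, adjusted p = 0.0765), without a filter (-0.15, adjusted p = 0.0579), without the trend (-0.15, adjusted p = 0.0681), with only both groups in the fit (-0.15, adjusted p = 0.0827), with a replicate block (-0.15, adjusted p = 0.0726) or with the other gene set for scaling (-0.14, adjusted p = 0.0635), and lay between -0.19 and -0.12 with a library left out. Tagln2 in KO against Het became called with upper quartile scaling (0.23, adjusted p = 0.0182), only both groups in the fit (0.21, adjusted p = 0.00958), a replicate block (0.23, adjusted p = 0.0201) or the other gene set (0.22, adjusted p = 0.0435), and lay between 0.19 and 0.25 with a library left out. Without scaling 36.5% of called genes were higher in KO against Het, against 48.1% with it. Sums and shares kept their direction under every alternative run.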
